A study of Mus musculus with 12 samples.

Results

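Reelin and the chemokine Cxcl12, each with its receptors, were followed in the cortex and hippocampus of mouse embryos with and without the splicing regulator Srrm4. The set holds 7 genes, chosen by name for their place in these pathways, with earlier results of these data known: Reln, the receptor genes Vldlr and Lrp8, the adaptor Dab1, Cxcl12, and the receptor genes Cxcr4 and Ackr3. All 7 were among the 22667 Ensembl gene IDs of the deposited tables, and all 7 were among the 16111 genes with enough reads to be tested. The data are messenger RNA sequencing of tissue from embryos labelled E18.5, shortly before birth, in 4 groups of 2 libraries: cortex control, cortex knockout (KO), hippocampus control and hippocampus KO. Controls are labelled wild type. The KO embryos carry the Srrm4 allele (the gene is also called nSR100) derived from a EUCOMM conditional line, in which Cre driven by the CMV promoter, active in most tissues, removed exons 7 and 8. The stem cells were aggregated with ICR morulae and the line was kept on C57Bl/6N. The labels do not say how many embryos went into a library or whether cortex and hippocampus with the same number came from the same embryo, so the spread between the libraries of a group may be technical.

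Reelin is a large secreted glycoprotein that tells migrating neurons where to settle. In the embryonic cortex and hippocampus it is made mainly by Cajal-Retzius cells of the outermost layer, and it binds Vldlr and Lrp8, the latter also called apolipoprotein E receptor 2, on neurons and radial glia. Receptor clustering leads Src family kinases to phosphorylate Dab1, which passes the signal to the cytoskeleton and to adhesion molecules. Cxcl12 is a chemokine that the meninges secrete. Cxcr4, its signalling receptor, acts through inhibitory G proteins and arrestins, and Ackr3, an atypical receptor also called CXCR7, binds Cxcl12 and takes it up from the surroundings. In mouse embryos this pair of receptors guides Cajal-Retzius cells, cortical interneurons and the granule neuron progenitors of the dentate gyrus.

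The promoters of the 3 genes that differed most between the tissues are shown, Cxcr4 and Reln (higher in hippocampus) and Ackr3 (lower). Each run is the 250 bases before the transcription start, from RefSeq on build GRCm38.p6 (a later build than the mm9 of the read counts), 5′ to 3′ on the strand of the gene. Capitals mark every match on either strand to a TATA element, searched as TATAAA, and to a GC box, searched as GGGCGG. Matches that overlap share capitals. Cxcr4 lies on chromosome 1 at chr1:128592300-128592549 on the minus strand, Reln on chromosome 5 at chr5:22344706-22344955 on the minus strand, and Ackr3 on chromosome 1 at chr1:90203730-90203979 on the plus strand.
Cxcr4: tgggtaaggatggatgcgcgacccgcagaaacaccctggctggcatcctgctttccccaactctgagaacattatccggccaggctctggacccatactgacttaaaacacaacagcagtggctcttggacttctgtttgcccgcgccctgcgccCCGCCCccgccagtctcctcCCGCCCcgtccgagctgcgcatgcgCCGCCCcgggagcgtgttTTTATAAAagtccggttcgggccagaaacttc
Reln: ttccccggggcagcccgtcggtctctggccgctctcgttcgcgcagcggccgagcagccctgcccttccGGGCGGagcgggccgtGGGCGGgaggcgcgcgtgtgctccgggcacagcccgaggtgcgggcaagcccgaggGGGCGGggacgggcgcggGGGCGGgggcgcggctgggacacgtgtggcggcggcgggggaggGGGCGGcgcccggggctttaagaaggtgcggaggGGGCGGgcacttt
Ackr3: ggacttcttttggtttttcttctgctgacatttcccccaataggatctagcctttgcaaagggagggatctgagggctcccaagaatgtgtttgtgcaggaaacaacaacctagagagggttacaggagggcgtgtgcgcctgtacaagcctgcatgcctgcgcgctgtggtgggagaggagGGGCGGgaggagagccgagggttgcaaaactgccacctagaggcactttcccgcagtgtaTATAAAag
The Cxcr4 run holds a TATA element on the strand of the gene that begins 30 bases before the start, overlapping a match on the opposite strand, and 3 GC boxes. The Reln run is 80.0% G or C, holds 6 GC boxes and has no TATAAA match. The Ackr3 run is 54.0% G or C, with 1 GC box and a TATA match that begins 8 bases before the start. Of all 32851 RefSeq mouse promoter windows of this length, 12.4% hold a TATA element by this search and 32.7% a GC box. These matches describe letters only, and no binding was measured here. The table held 11 promoter windows for the 7 genes.

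The libraries held between 58210499 and 140052443 counted reads, and the replicate 1 libraries, each from 2 sequencing runs per the labels, were deeper than the replicate 2 libraries. Srrm4 itself, the targeted gene, fell in the KO by 1.71 on the log2 scale in cortex and by 2.22 in hippocampus (edgeR quasi-likelihood test, Benjamini-Hochberg adjusted p = 0.000877 and 0.000254), and its reads were fewer in all 4 KO libraries than in any control library. In the tissue comparison over both genotypes, 29.0% of all 16111 genes were higher in hippocampus and 25.0% lower (edgeR, adjusted p under 0.05). Of the tissue markers, all 10 of hippocampus were higher there, and of 12 for cortex 10 were lower and Lhx2 and Fezf2 higher. All 10 microglia markers and 6 of 8 choroid plexus markers were higher in hippocampus, and none of the 7 tested red blood cell markers passed. A pair of hippocampus libraries stood apart. Control replicate 2 had 152.4 RPKM (reads scaled by gene length and by the total of the library) of Ttr, a choroid plexus gene, against 13.42 to 26.83 RPKM in the other 3 hippocampus libraries. KO replicate 1 had 24.04 RPKM of Mef2c, a transcription factor gene from the list of cortex markers, against 12.79 to 13.94 RPKM in the other 3, and 4.4% of its reads were mitochondrial against 3.14% to 3.44% elsewhere.

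All 7 genes were detected well in every library, and their levels spanned a wide range. On the RPKM scale, which corrects for gene length, the order by mean level over the 8 libraries was Reln, Lrp8, Cxcr4, Dab1, Vldlr, Ackr3 and Cxcl12. Reln averaged 76.97 ± 37.9 RPKM (SD, n = 8), rank 898 of 21553 genes with a value, and Cxcl12 averaged 4.105 ± 0.924 RPKM (SD, n = 8), rank 10187. These SDs include the tissue difference. Lrp8, Cxcr4 and Dab1 had mean levels of 57.16, 50.44 and 49.84 RPKM and were not separated beyond the spread over all libraries. The order differed by tissue. In cortex Dab1 was highest, at 57.16 ± 1.18 RPKM (SD, n = 4), whereas in hippocampus Reln came first at 110.7 ± 17.1 RPKM and Cxcr4 next at 81.26 ± 3.96 RPKM (SD, n = 4 each).

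**Figure D1:**
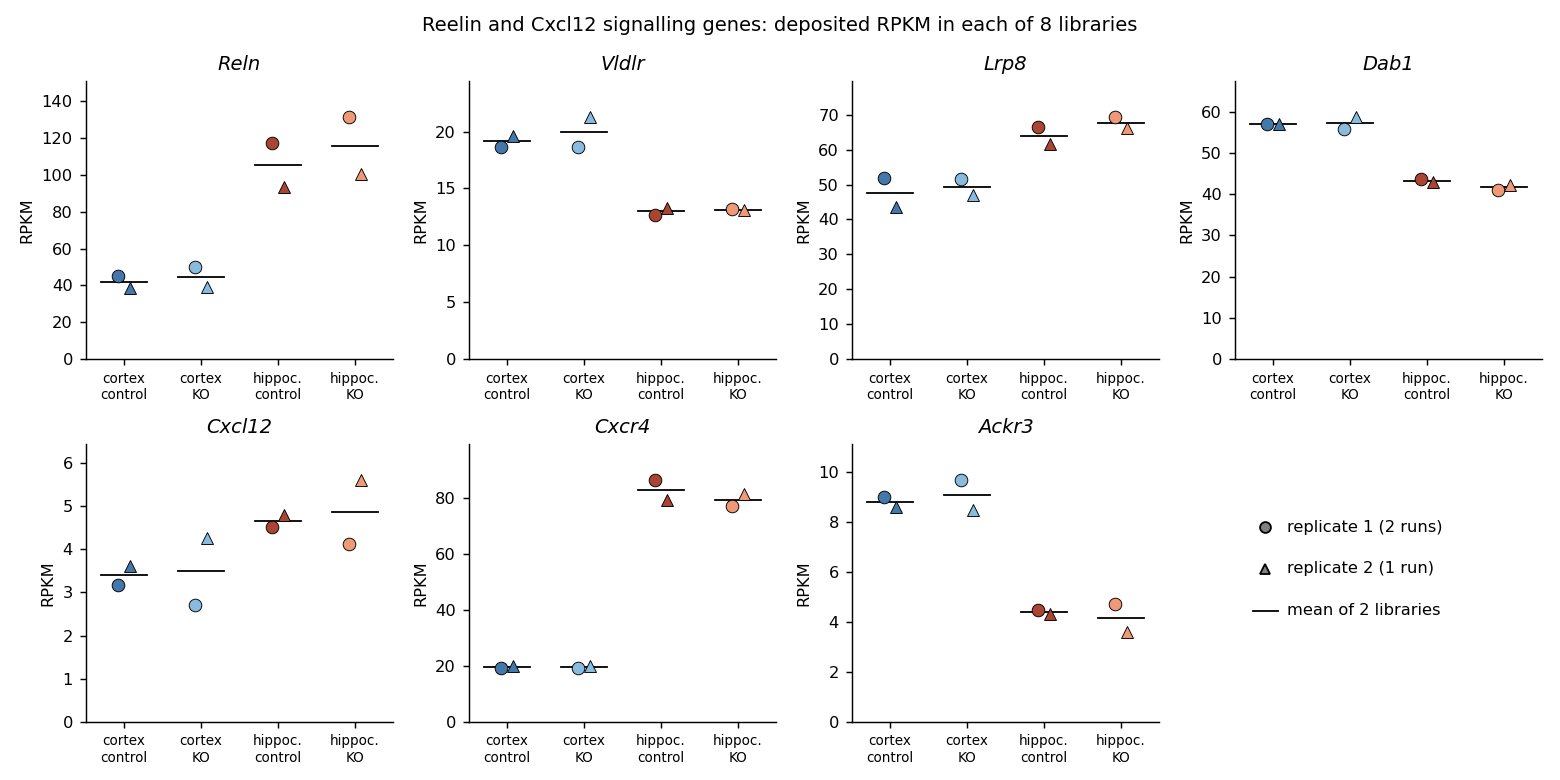
RPKM (vertical axis, from 0) of the 7 genes in each of the 8 libraries, by group on the horizontal axis; circles are replicate 1, triangles replicate 2 and lines the mean of 2 libraries. Cxcr4 sits between 19.21 and 19.97 in the cortex libraries and between 77.35 and 86.57 in the hippocampus libraries, and within a tissue control and KO points lie close together or overlap in each panel.

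The main contrast in these data was between the tissues. Hippocampus had more RNA of the ligand Reln, of the receptors Cxcr4 and Lrp8 and, by a smaller margin against its spread, of Cxcl12, and less of Vldlr, Dab1 and Ackr3. With the genotypes pooled and genotype as a covariate, all 7 genes passed an adjusted p of 0.05 in the edgeR test over 16111 genes, where 54.1% of all genes passed (29.0% higher and 25.0% lower in hippocampus), so passing was common in this contrast. Of the 7, 4 were higher and 3 lower. The 7 differed in size: 3.91% of tested genes had a larger absolute tissue difference than Cxcr4, 9.14% a larger one than Reln and 10.6% a larger one than Ackr3, against 23.3% for Vldlr, 30.4% for Dab1, 39.5% for Cxcl12 and 42.4% for Lrp8. In controls alone 6 of the 7 passed (33.9% of all genes did), and in KO alone also 6 of the 7 (40.0% of all genes), Cxcl12 being the exception in each. That exception depended on the fit, as given with the Cxcl12 values. In bulk tissue, fewer cells of a type and less RNA per cell cannot be told apart. With single libraries left out, 6 to 7 of the 7 passed over both genotypes, and the gene that lost its call was Cxcl12. Without both hippocampus libraries that stood apart all 7 passed, Cxcl12 narrowly.

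Reln, the ligand, was read at 45.1 and 38.6 RPKM in control cortex and at 50.25 and 38.95 RPKM in KO cortex (replicates 1 and 2 of each group, in that order throughout). Hippocampus libraries held 117.56 and 93.4 RPKM for controls and 131.34 and 100.52 RPKM for KO. Every hippocampus library was above every cortex library, and in each group replicate 1 was the higher. Reln was 2.4-fold higher in hippocampus (log2 fold change 1.27, SE 0.13, edgeR adjusted p = 3.547e-05). The log2 RPKM ratio between the tissues within a genotype and replicate number lay between 1.27 and 1.39. Markers of Cajal-Retzius cells moved in the same direction: 7 of 9 were higher in hippocampus and 1 (Ebf2) was lower. Their summed level was 116.0 to 134.9 CPM (counts scaled by library total and by the edgeR scaling factor) in cortex and 394.7 to 466.7 CPM in hippocampus. Trp73, a transcription factor of these cells, was read at 3.47 to 3.76 RPKM in cortex and 15.57 to 19.0 RPKM in hippocampus. Of the markers of interneurons, which also make reelin later in development, 14 of 16 measured were lower in hippocampus. Their summed levels were 1080 to 1178 CPM in cortex and 497.2 to 633.3 CPM in hippocampus. The other 2, Nr2f2 and Htr3a, had positive log2 fold changes that did not pass, though 1 of them passed in controls alone. The part of either cell type in the Reln difference was not tested. An antisense gene, Gm10475, overlaps a Reln exon in the GENCODE M21 annotation, and since the sources used here do not give the strand setting of the counting, its reads and those of Reln cannot be told apart.

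The reelin receptors differed in opposite directions. Vldlr was read at 18.68 and 19.63 RPKM in control cortex and at 18.61 and 21.26 RPKM in KO cortex. The hippocampal values were 12.66 and 13.3 RPKM for controls and 13.17 and 13.12 RPKM for KO. The tissues did not overlap, and the 4 hippocampus libraries lay close together. Vldlr was lower in hippocampus, with a log2 fold change of -0.67 (SE 0.05, edgeR adjusted p = 3.381e-06). Lrp8 was read at 51.77 and 43.58 RPKM in control cortex and at 51.73 and 46.88 RPKM in KO cortex. Values in hippocampus were 66.4 and 61.55 RPKM for controls and 69.28 and 66.08 RPKM for KO. Here too the tissues did not overlap, with replicate 1 the higher in each group. Lrp8 was 1.27-fold higher in hippocampus (log2 fold change 0.35, SE 0.07, edgeR adjusted p = 0.0029). Its tissue call in a single genotype was less firm than that of Vldlr: without both libraries that stood apart, its edgeR adjusted p was 0.068 in controls and 0.136 in KO. In controls the call was also lost without cortex control replicate 2, either hippocampus control library or either hippocampus KO library (edgeR adjusted p from 0.0541 to 0.268). In KO it was lost without cortex KO replicate 2 or either hippocampus KO library (0.077 to 0.177).

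Per length, Lrp8 exceeded Vldlr in all 8 libraries, and by more in hippocampus. The Lrp8 to Vldlr RPKM ratio was 2.77 and 2.22 in the control and 2.78 and 2.21 in the KO libraries of cortex. In hippocampus it was 5.24 and 4.63 for controls and 5.26 and 5.04 for KO. It averaged 2.49 ± 0.33 in cortex and 5.04 ± 0.30 in hippocampus (SD, n = 4 libraries each), and the tissues did not overlap. The log2 difference of 1.02 had a two-sided exact permutation p of 0.0286, the smallest that 70 arrangements allow, and 0.0571 after adjustment over the 4 ratio tests made. That smallest p, adjusted, could not reach 0.05 unless more of the 4 tests had passed.

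Dab1, the adaptor that binds the tails of both reelin receptors, was read at 57.11 and 57.0 RPKM in control cortex and at 55.84 and 58.7 RPKM in KO cortex. The hippocampus libraries were at 43.71 and 42.9 RPKM for controls and 41.13 and 42.32 RPKM for KO. The tissues did not overlap. Dab1 was lower in hippocampus, with a log2 fold change of -0.52 (SE 0.05, edgeR adjusted p = 1.641e-05). Of the 4 reelin genes, the ligand and Lrp8 were thus higher in hippocampus and Vldlr and Dab1 lower.

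Cxcl12, the ligand of the other pathway, was the least abundant of the 7 genes and the least clear. It was read at 3.18 and 3.61 RPKM in control cortex and at 2.72 and 4.27 RPKM in KO cortex. In hippocampus the values were 4.53 and 4.8 RPKM for controls and 4.12 and 5.61 RPKM for KO. The tissues overlapped, since cortex KO replicate 2 lay above hippocampus KO replicate 1. Within a genotype and replicate number hippocampus was the higher in all 4 cases, by 0.394 to 0.599 on log2 RPKM. RPKM lacks the edgeR scaling factor, which was 0.956 to 0.984 in cortex and 1.002 to 1.049 in hippocampus. Each log2 RPKM ratio of hippocampus to cortex given here is therefore raised against the edgeR scale. Over both genotypes the log2 fold change was 0.38 (SE 0.14, edgeR adjusted p = 0.0399), and it was 0.39 in controls (adjusted p = 0.1925) and 0.38 in KO (adjusted p = 0.1872). With the replicate number as a block, both passed (edgeR adjusted p = 0.0466 and 0.0447), and the difference in controls also passed with only the 4 control libraries in the fit (0.0136). Leaving out any 1 of 6 of the 8 libraries took the adjusted p over both genotypes above 0.05, up to 0.119 without hippocampus KO replicate 2; the exceptions were cortex KO replicate 2 and hippocampus KO replicate 1. Without both libraries that stood apart it was 0.0499. Within KO alone, leaving out cortex KO replicate 2 raised the log2 fold change to 0.71 (edgeR adjusted p = 0.0234). Markers of meninges, a known source of Cxcl12, were higher in hippocampus for 9 of 11 genes, with summed levels of 21.33 to 25.18 CPM in cortex and 50.34 to 100.1 CPM in hippocampus. Markers of endothelium and pericytes were higher for 8 of 11, at 319.9 to 333.4 CPM and 388.9 to 438.3 CPM. Within hippocampus, KO replicate 2 had the lowest meninges sum (50.34 CPM) and the highest Cxcl12 (5.61 RPKM). Control replicate 1 had the highest sum (100.1 CPM) and 4.53 RPKM of Cxcl12. By replicate number, 10 of 11 meninges markers were higher in replicate 1, none past the threshold, whereas Cxcl12 was lower there. The part of these cells in the Cxcl12 values was not tested.

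Cxcr4 had the largest tissue difference of the 7. It was read at 19.21 and 19.97 RPKM in control cortex and at 19.33 and 19.96 RPKM in KO cortex. In hippocampus the values were 86.57 and 79.41 RPKM for controls and 77.35 and 81.72 RPKM for KO. The cortex libraries lay close together, and the lowest hippocampus library was far above the highest cortex library. Cxcr4 was 3.89-fold higher in hippocampus (log2 fold change 1.96, SE 0.06, edgeR adjusted p = 2.178e-08), and the log2 RPKM ratio within a genotype and replicate number was 1.99 to 2.17. Markers of intermediate progenitors, the dividing precursors of excitatory neurons, were all higher in hippocampus (10 of 10), summed to 211.3 to 241.5 CPM in cortex and 508.8 to 586.7 CPM in hippocampus. Of 8 dentate gyrus markers, 7 were higher and Calb1 was lower, with summed levels of 404.8 to 491.7 CPM and 1973 to 2354 CPM; most of these genes are also in the list of hippocampus markers. Cajal-Retzius markers were higher for 7 of 9, and interneuron markers went the other way, with 14 of 16 lower. Which cell types carried the Cxcr4 difference was not tested.

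Ackr3 differed the other way. It was read at 8.99 and 8.59 RPKM in control cortex and at 9.68 and 8.46 RPKM in KO cortex. In hippocampus the values were 4.46 and 4.33 RPKM for controls and 4.72 and 3.58 RPKM for KO. Every hippocampus library was below every cortex library. The log2 fold change was -1.15 (SE 0.09, edgeR adjusted p = 8.392e-06), and the log2 RPKM ratio within a genotype and replicate number was between -1.24 and -0.988. Interneuron markers, whose summed levels are given with Reln, were lower in hippocampus too (14 of 16). Markers of Cajal-Retzius cells (7 of 9) and of the dentate gyrus (7 of 8) went the other way and were higher there. The part of these cell types in the Ackr3 difference was not tested.

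The balance of the Cxcl12 receptors, per length, followed from these opposite differences. The Cxcr4 to Ackr3 RPKM ratio was 2.14 and 2.32 in the control and 2.0 and 2.36 in the KO libraries of cortex. In hippocampus it was 19.4 and 18.3 for controls and 16.4 and 22.8 for KO. Cxcr4 was the more abundant receptor in all 8 libraries, and no hippocampus ratio came near a cortex ratio. Tested the other way up, as Ackr3 to Cxcr4, the ratio averaged 0.456 ± 0.0358 in cortex and 0.0527 ± 0.00714 in hippocampus (SD, n = 4 libraries each). The log2 difference was -3.12, with a two-sided exact permutation p of 0.0286, again the smallest possible, and 0.0571 adjusted over the 4 ratio tests.

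**Figure D2:**
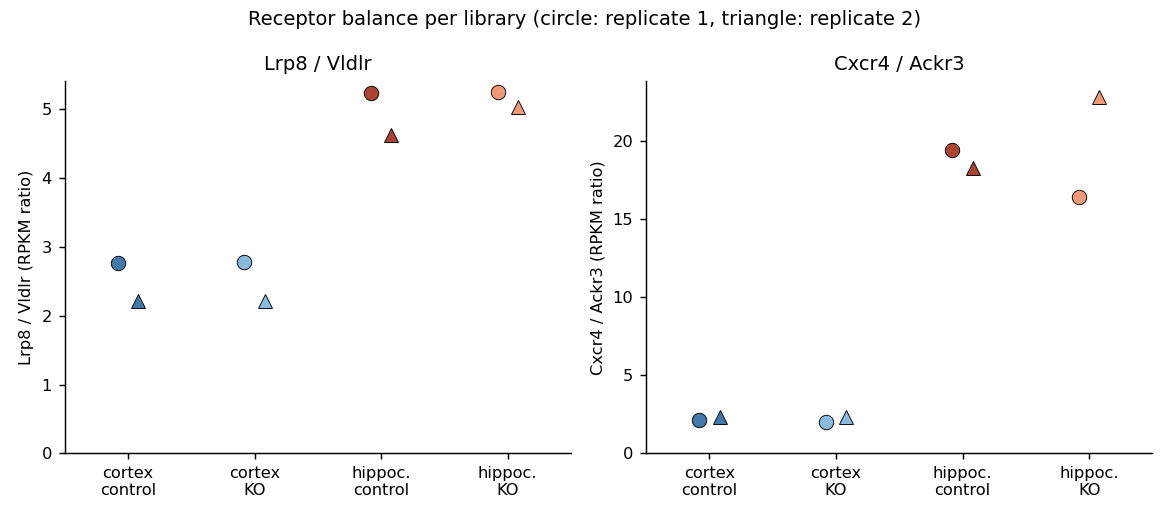
RPKM ratios of the reelin receptors (left, Lrp8 over Vldlr) and of the Cxcl12 receptors (right, Cxcr4 over Ackr3) in each of the 8 libraries, by group; circles are replicate 1 and triangles replicate 2, and both axes start at 0. Cortex ratios lie at 2.21 to 2.78 and 2.0 to 2.36, hippocampus ratios at 4.63 to 5.26 and 16.4 to 22.8.

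The genotype comparison asks whether loss of Srrm4 changed the RNA levels of these genes in either tissue. None of the 7 genes passed the edgeR test in cortex, where 3 of all 16111 genes did (0.0186%), none in hippocampus (4 genes, 0.0248%) and none over both tissues with tissue as a covariate (10 genes, 0.0621%). DESeq2 likewise called 0 of the 7 in each. Without adjustment, none of the 7 had a p under 0.05 either, against 1.14% of all genes in cortex, 3.81% in hippocampus and 4.43% over both tissues. A p that misses the threshold does not show equal levels. The 95% intervals show what could have been missed, given the spread between these libraries. That spread may be technical, and cortex and hippocampus libraries, counted as independent, may share embryos. The intervals may thus be too narrow for a genotype effect across embryos. Over both tissues the interval of the KO to control ratio was narrowest for Vldlr (0.945 to 1.096), Dab1 (0.906 to 1.049) and Cxcr4 (0.893 to 1.055). It was 0.924 to 1.161 for Lrp8 and 0.848 to 1.136 for Ackr3. It was widest for Reln (0.876 to 1.31) and Cxcl12 (0.826 to 1.27), the genes whose replicates differed most. Within a single tissue the bounds were looser, reaching 0.784 to 1.458 for Reln and 0.738 to 1.434 for Cxcl12 in cortex.

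Control and KO libraries overlapped in each tissue for every member except Dab1 in hippocampus. There the KO libraries (41.13 and 42.32 RPKM) lay below both controls, with a log2 fold change of -0.08 (SE 0.07, edgeR adjusted p = 0.992). With 2 libraries on each side such a separation arises easily without a difference, and its share over all genes was not computed. Mean Reln was 41.85 ± 4.6 RPKM in controls against 44.6 ± 7.99 in KO for cortex (SD, n = 2 each). For hippocampus it was 105.5 ± 17.1 RPKM against 115.9 ± 21.8 (SD, n = 2 each). Its log2 KO to control ratio was above 0 in each of the 4 comparisons within a tissue and replicate number, from 0.013 to 0.16, with a log2 fold change over both tissues of 0.10 (SE 0.13, edgeR adjusted p = 0.9997). Without both libraries that stood apart, which leaves hippocampus control replicate 1 and KO replicate 2, the Reln log2 fold change in hippocampus was -0.27 in place of 0.10. The Cxcl12 ratio was below 0 in both replicate 1 comparisons (-0.225 in cortex and -0.137 in hippocampus) and above 0 in both replicate 2 comparisons (0.242 and 0.225). By genotype the receptor ratios differed on log2 by 0.03 (Lrp8 to Vldlr) and 0.0012 (Ackr3 to Cxcr4). The two-sided exact permutation p was 0.914 and 1.0. This test shuffled genotype over all libraries without regard to tissue. Its spread held the tissue difference, so it could hardly detect a smaller genotype difference and decides nothing here. In cortex the Lrp8 to Vldlr ratio averaged 2.5 in controls and 2.49 in KO, and in hippocampus 4.94 and 5.15. The Ackr3 to Cxcr4 ratio averaged 0.449 and 0.462 in cortex and 0.053 and 0.0524 in hippocampus (n = 2 each). The tissue differences in controls and in KO were 2.01 and 1.91 for Cxcr4, 1.26 and 1.27 for Reln, and -1.07 and -1.23 for Ackr3 as log2 fold changes. The test of the difference between them, the genotype by tissue interaction, called none of the 7 genes and 0 of all genes in edgeR (0.0% of 16111, with 158, or 0.981%, under an unadjusted p of 0.05) and 0 of all genes in DESeq2. The interval of the interaction was -0.36 to 0.16 for Cxcr4 and -0.63 to 0.64 for Reln on the log2 scale. Srrm4 regulates splicing, chiefly of neuronal microexons, and totals per gene do not show whether isoforms of Dab1, Lrp8 or any other of these genes changed.

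**Figure D3:**
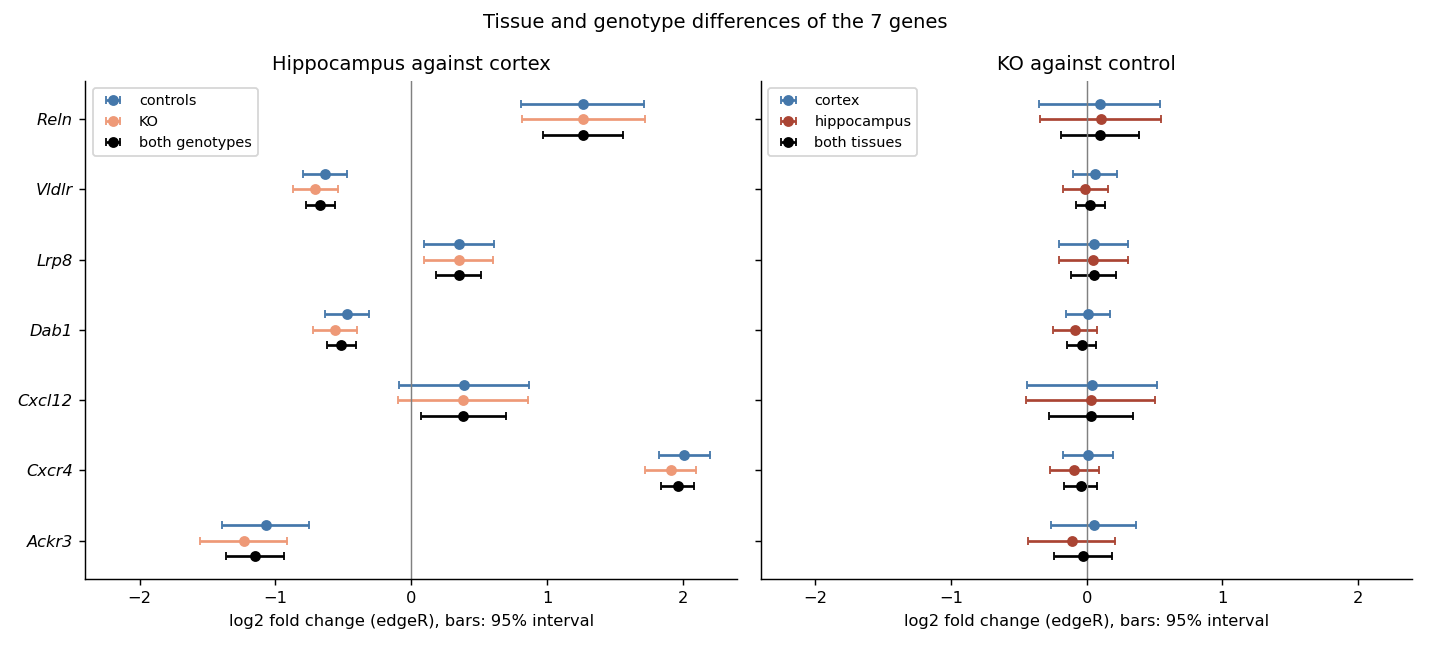
Log2 fold changes of the 7 genes (horizontal axis) with 95% intervals from the edgeR fit, for hippocampus against cortex (left) and KO against control (right); colours give the genotype or tissue in which the comparison was made and black all 8 libraries. On the left the intervals over both genotypes exclude 0 for all 7 genes, and on the right every interval includes 0.

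Part of the spread within groups followed the replicate number. The labels give 2 runs for each replicate 1 library and 1 for each replicate 2 library, so the number goes with the count of runs. They do not say whether the samples also differ in origin, and a difference in sequencing and one in origin cannot be told apart here. With the number as a term beside genotype and tissue, Reln was higher in replicate 1 by a log2 fold change of 0.36 (SE 0.04, edgeR adjusted p = 0.0033), and the same direction was seen in all 4 groups, by 0.225 to 0.386 on log2 RPKM. Lrp8 was also higher in replicate 1, in all 4 groups, with a log2 fold change of 0.17 (SE 0.04, edgeR adjusted p = 0.043). These were 2 of the 7 genes, where 10.9% of all genes passed. Cxcl12 was lower in replicate 1 in all 4 groups, with a log2 fold change of -0.31 that missed the threshold (SE 0.09, edgeR adjusted p = 0.0611), and Ackr3 was at 0.20 (SE 0.06, adjusted p = 0.0834). Vldlr, Dab1 and Cxcr4 had log2 fold changes of -0.06, 0.01 and 0.02. The tissue and genotype groups hold 1 library of each number, so the number is balanced across them.

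**Figure D4:**
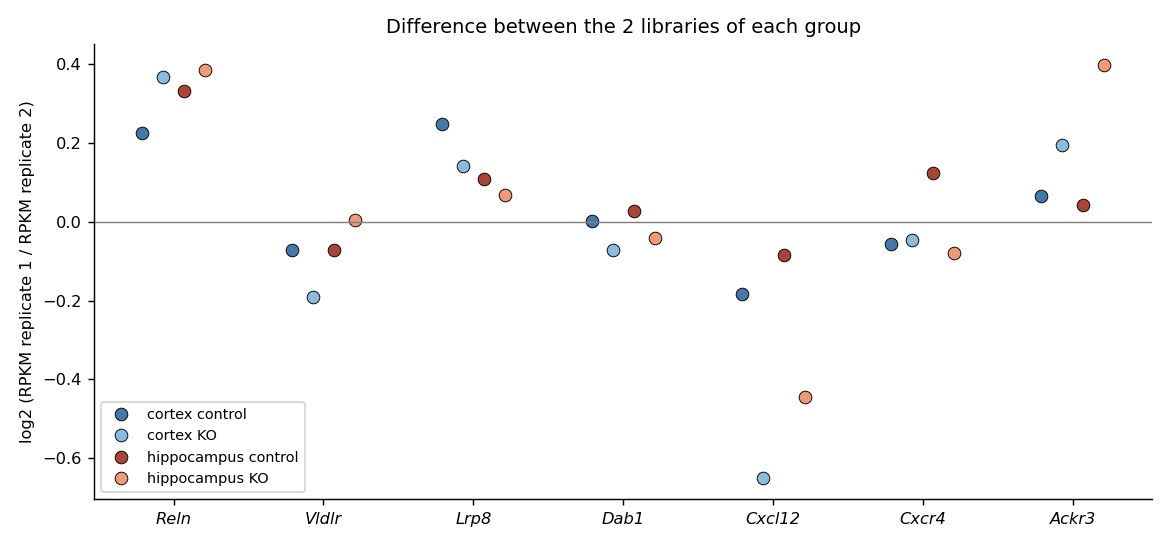
Log2 ratio of RPKM in replicate 1 to RPKM in replicate 2 (vertical axis) for the 7 genes, 1 point for each of the 4 groups. Reln lies above 0 in all groups (0.225 to 0.386) and Cxcl12 below 0 in all groups (-0.651 to -0.0835), while Dab1 stays between -0.0721 and 0.027.

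The rest of the reelin pathway was followed in lists. Of 16 genes for further ligands, proteases and receptor turnover, 6 were higher in hippocampus, 9 lower and 1 did not pass, so that 93.8% passed against 54.1% of all genes. Their median log2 fold change was -0.27, beside 0.02 over all genes tested. Efnb2, an ephrin that interacts with the reelin pathway, had mean levels of 63.67 ± 0.0919 RPKM in cortex control and 24.63 ± 0.785 in hippocampus control (SD, n = 2 each), a log2 fold change of -1.47 over both genotypes (SE 0.04, edgeR adjusted p = 2.343e-08). Efnb1 was lower too, at -0.55. Mylip, the ubiquitin ligase also called Idol that removes Vldlr and Lrp8 from the cell surface, was lower as well, at -1.18 (SE 0.08, adjusted p = 3.816e-06), from a low level of 3.5 RPKM in cortex control. Clu, a secreted chaperone that binds both receptors, was higher, at 1.17 (SE 0.09, adjusted p = 4.86e-06). Apoe, a lipoprotein ligand of Lrp8, was the most abundant of the list and was higher as well, at 0.51. Adamts3, a protease that cleaves reelin and inactivates it, was lower, at -0.41 (adjusted p = 1.813e-05).

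Of 27 genes for intracellular effectors of reelin, 3 were higher in hippocampus, 9 lower and 15 did not pass, with a median log2 fold change of -0.10. The share that passed, 44.4%, was below the 54.1% of all genes. Itgb1, the beta subunit of integrins that reelin signalling activates, was higher at 0.52, and so was Limk1, the kinase that phosphorylates cofilin, at 0.51. Dab2ip, a GTPase-activating protein, was lower at -0.49, and Socs7, which recruits the ubiquitin ligase that degrades phosphorylated Dab1, was lower at -0.37. The kinase genes Fyn and Src, which phosphorylate Dab1, had log2 fold changes of -0.19 each, of which that of Fyn passed (adjusted p = 0.0441) and that of Src did not (0.0513). Cfl1, the cofilin gene and the most abundant of the list, was lower at -0.18 (edgeR adjusted p = 0.0107).

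Of 8 genes for other ligands, modifiers and receptors around Cxcl12, 2 were higher in hippocampus, 3 lower and 3 did not pass, with a median log2 fold change of -0.27. That 62.5% passed is near the 54.1% of all genes. Sdc4, a heparan sulfate proteoglycan, was higher at 1.44 (SE 0.11, edgeR adjusted p = 5.367e-06), from 0.745 ± 0.0495 RPKM in cortex control to 2.09 ± 0.141 in hippocampus control (SD, n = 2 each). Cxcl14, a chemokine reported to bind Cxcr4, was lower at -0.81. Mif, a cytokine that can bind Cxcr4 and Ackr3, was by far the most abundant ligand of the list, at 396.7 RPKM in cortex control, and was lower at -0.21. Its receptor gene Cd74 was lower at -0.97, at levels of at most 0.185 RPKM as a group mean.

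Of 23 intracellular effectors of Cxcl12 signalling, 5 were higher in hippocampus, 12 lower and 6 did not pass, with a median log2 fold change of -0.23. Of this list 73.9% passed, against 54.1% of all genes, of which 25.0% were lower. Stat3, a transcription factor activated downstream of Cxcr4 among many other receptors, was higher, at 7.28 ± 0.113 RPKM in cortex control and 23.89 ± 1.65 in hippocampus control (SD, n = 2 each), with a log2 fold change of 1.63 over both genotypes (SE 0.07, edgeR adjusted p = 1.502e-07). Lower genes included Ptk2b, a calcium-regulated kinase of the focal adhesion kinase family, at -1.22, Elmo1, which with Dock1 activates Rac, at -0.88, and Rgs16, a brake on G protein signalling, at -0.86. Dock1, the partner of Elmo1, was higher at 0.79. Of the inhibitory G protein subunits, Gnai1 and Gnao1 were lower at -0.41 and -0.45, and Gnai2 and Gnai3 higher at 0.17 and 0.20. None of the genes in the 4 pathway lists passed in KO against control in cortex, in hippocampus or over both tissues.

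**Figure D5:**
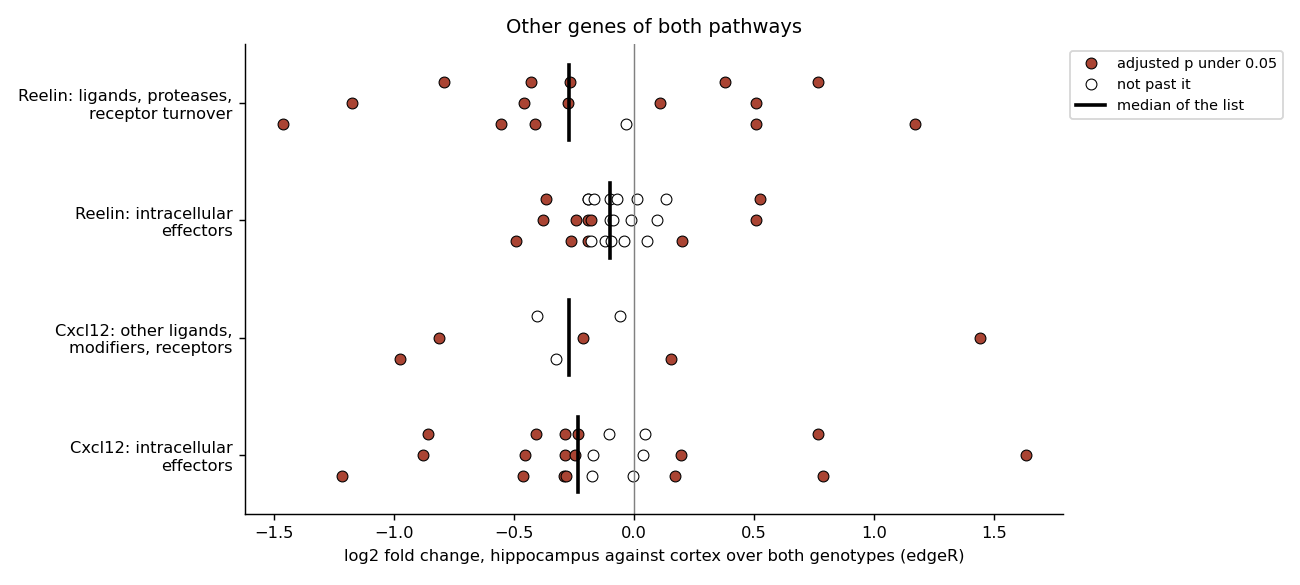
Log2 fold change of hippocampus against cortex over both genotypes (horizontal axis, edgeR) for the other genes of the 2 pathways in 4 lists; filled points passed an adjusted p of 0.05, open points did not, and black bars are list medians. The medians of the 4 lists lie between -0.27 and -0.10, and single genes range from -1.47 to 1.63.

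The genes whose log2 CPM followed each member most closely over the 8 libraries were picked from 12650 other genes with a mean of at least 1 RPKM. Libraries of 1 tissue, and those of 1 replicate number with their like depth, are not independent points, so these likenesses are descriptions only. Reln was closest to Ndnf (Pearson r = 0.998), itself a Cajal-Retzius marker, and then to Phgdh, an enzyme of serine synthesis, and Trim56. Cxcr4 was closest to Id3, a target of bone morphogenetic protein signalling (r = 0.999), and then to Sapcd2 and Nkd1. Lrp8 was closest to Apoe (r = 0.995), and then to Cacna1c and Fv1. For Vldlr the closest were Gfpt2, Arhgap29 and Mgat4a, for Dab1 Tspan5, 2610002M06Rik and Sowaha, and for Ackr3 Syt4, Slc22a23 and Fbxw7, all with negative log2 fold changes in hippocampus against cortex. Cxcl12 stood out by having few such genes: 204 genes had an r above 0.9 with it, against 622 for Lrp8 and between 1779 and 2237 for the other 5. Its closest were B2m (r = 0.982), Anxa7 and Ankrd13a. Among the members, Cxcl12 and Lrp8 were the least alike (r = 0.42), and Cxcr4 and Vldlr the most, in opposite directions (r = -0.988).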

How the data were processed

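Messenger RNA from 12 sequenced samples forms 8 libraries, since runs 1 and 2 of each replicate 1 share a table. The submitters' processing notes name Bowtie and build mm9. The sources used here do not give the counting rule, strand setting or annotation. The authors deposited, per gene, a raw read count and an RPKM value (reads scaled by gene length and library total). Of the RPKM cells, 1114 per library read "ne" and were left out, and blank count cells were read as 0. The implied gene length agreed between tables within 0.996 to 1.004 over 8425 well-counted genes.

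Counts were tested with edgeR 4.0.16 (quasi-likelihood, TMM, filterByExpr with a minimum count of 10) in R 4.3.3, all 8 libraries in each fit, with Benjamini-Hochberg adjustment over 16111 genes and a threshold of 0.05; intervals are 95%. Tissue and genotype effects over all libraries came from an additive model. Receptor ratios of RPKM were tested by exact permutation over libraries. Alternatives were DESeq2 1.42.0, limma 3.58.1 on log2(RPKM + 1) and log2(RPKM + 0.1), other size factors and filters, a replicate block, fewer libraries and leaving out each library. The fits were tested on simulated data. Members and lists were chosen with earlier results of these data known. Genes named are the 7 members, Srrm4, up to 4 genes per list and contrast by smallest p, the 2 most abundant of each list, and the 3 most correlated with each member (log2 CPM, prior count 2); Adamts3 and others came under the contrasts within a genotype, and Fyn, Src, Dock1, Gnai1, Gnai2 and Gnai3 were added after their values were seen, for their known roles. Of the interneuron markers, 16 of 18 symbols matched a gene ID.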

Additional observations from a re-analysis of the deposited data

How the results depend on the processing

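The members called numbered 7 in the tissue effect over both genotypes, 6 in controls, 6 in KO and 0 in each genotype comparison and in the interaction. When single libraries were left out these counts were 6 to 7, 5 to 6, 5 to 6 and 0. Of the single-gene values under alternatives, 684 kept their direction and their side of the threshold, 19 lost and 4 gained a call, and 39 changed sign. Those that changed sign were uncalled genotype or interaction values, small in the main fit but not always in the alternative. The Cxcl12 KO effect in cortex, for example, was 0.04 in the main fit and -0.29 without cortex KO replicate 2. The cause of these changes was not tested. The tissue effect of Cxcr4, Reln, Vldlr, Dab1 and Ackr3 remained past the threshold in every alternative run. Lrp8 missed it with other size factors (log2 fold change 0.33 in controls, adjusted p = 0.0677, and 0.32 in KO, adjusted p = 0.0654). The replicate block, the replicate number as a covariate, added Cxcl12 in controls (0.39, adjusted p = 0.0466) and in KO (0.39, adjusted p = 0.0447). The block left the genotype comparisons at 0 members and moved the calls among all genes in KO against control over both tissues from 10 to 22. With only the 4 control libraries in the fit, Cxcl12 passed (0.39, adjusted p = 0.0136) and Lrp8 did not (0.35, adjusted p = 0.0506). The same-numbered deviations of 2 groups correlated at 0.0961 to 0.38 over genes, and with 2 numbers only this was not taken as pairing. DESeq2 called 11, 18 and 37 genes in KO against control in cortex, in hippocampus and over both tissues, where edgeR called 3, 4 and 10. The other settings gave 2 to 4, 2 to 6 and 2 to 22 genes, the lowest over both tissues with limma on the means of both tissues per genotype and number.

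In limma the Vldlr log2 KO effect in hippocampus was 0.0173 with a pseudocount of 1 and 0.0185 with 0.1, against -0.01. The Reln interaction was -0.0046 in DESeq2 and -0.0046 with other size factors, against 0.0056. Without both libraries that stood apart, which leaves replicates of different numbers in hippocampus, the KO effect there was -0.27 for Reln, 0.0046 for Vldlr and -0.0543 for Lrp8, the Reln effect over both tissues was -0.0267 and its interaction -0.37. With single libraries left out, the KO effect in cortex ranged from -0.118 to 0.284 for Reln, -0.0137 to 0.0284 for Dab1, -0.0192 to 0.138 for Vldlr, -0.0857 to 0.201 for Lrp8, -0.293 to 0.323 for Cxcl12, -0.0023 to 0.0147 for Cxcr4 and -0.0689 to 0.16 for Ackr3. In hippocampus it ranged from -0.0936 to 0.31 for Reln, -0.0306 to 0.136 for Lrp8, -0.219 to 0.246 for Cxcl12, -0.18 to 0.0013 for Cxcr4 and -0.317 to 0.0593 for Ackr3. Over both tissues it ranged from -0.0138 to 0.0488 for Vldlr, -0.0024 to 0.109 for Lrp8, -0.0975 to 0.146 for Cxcl12, -0.0696 to 0.0055 for Cxcr4 and -0.0938 to 0.0542 for Ackr3. The Reln interaction ranged from -0.191 to 0.218. The log2 genotype difference of the Lrp8 to Vldlr ratio ranged from -0.188 to 0.262 and that of Ackr3 to Cxcr4 from -0.565 to 0.607. These ratio differences have no tissue term, and leaving out a library unbalances the tissues between the genotypes. The tissue difference thus enters both ranges, and they do not show how far a genotype difference varied.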
